A study of Homo sapiens with 4 samples.

Results

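The 9 myeloid differentiation transcription factor genes SPI1, CEBPA, CEBPB, CEBPD, CEBPE, IRF8, KLF4, GFI1 and IKZF1 were taken by symbol from the 18567 rows of the deposited table. Of the 9, 8 had a row, and CEBPD, on chromosome 8, had none and was not analysed here.

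Myeloid differentiation is steered by a small group of transcription factors, proteins that bind DNA and set which genes are read. PU.1, an ETS-domain factor encoded by SPI1, and the C/EBP factors, which bind DNA as bZIP dimers, switch on the receptors, granule proteins and oxidase of granulocytes and monocytes. C/EBPα acts at the progenitor step, C/EBPβ in inflammatory and stress-driven myelopoiesis, and C/EBPε in the last steps of granulocyte maturation. IRF8 and KLF4 favor the monocyte fate, GFI1 is a repressor needed for neutrophils, and IKZF1 encodes Ikaros, a zinc-finger regulator of lymphoid and myeloid cells.

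The labels name the cells as Kasumi-1, a line established from acute myeloid leukemia (AML) and known for the RUNX1::RUNX1T1 fusion. The groups were 2 NC samples, which the labels give as untreated and with no shRNA, and 2 sh-ANP32B samples with short hairpin knockdown of ANP32B, a histone chaperone of the acidic nuclear phosphoprotein family. According to its methods, the study used a control hairpin, lentiviral delivery and puromycin selection, so which control was sequenced was not settled. The study also used several ANP32B hairpins, and the labels do not say which was in each sh-ANP32B sample. A difference between hairpins therefore cannot be told apart from the difference between the sh-ANP32B replicates. If NC carried no hairpin, infection and selection cannot be told apart from knockdown. The study says in general that its experiments were independently repeated, but more often than the 2 samples per group here. Whether these replicates were separate cultures is not stated. The p-values therefore measure the spread between these samples, which may be technical.

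Values are TPM, a length-normalized share of the transcripts of a sample, which divides the signal of a gene by its length and by the total of its sample. TPM levels can therefore be compared between genes, but sequencing depth is unknown. ANP32B itself stood at 383.8 and 392 TPM in NC against 51.8 and 41.2 TPM after knockdown, replicate 1 first in each pair here and throughout (log2 fold change -3.04, SE 0.15, limma adjusted p 0.00516, and 0.0929 without the abundance trend). Of 7 myeloblast markers, 5 had a row, with RUNX1T1 at 15.6 to 31.2 TPM and KIT at 1.55 to 3.41 TPM. Of these 5, 0 passed an adjusted p under 0.05 by limma, against 3.32% of all genes tested. An unadjusted p under 0.05 was reached by 3, against 23.8%. CD34 and MPO had no row, although CD34 and KIT are known surface markers of Kasumi-1. HOXA9 was at 150.2 to 194.5 TPM and MEIS1 at 49.9 to 64.3 TPM, homeobox genes known to be low in leukemias with this fusion. The CD34, MPO, KIT, HOXA9 and MEIS1 values go against the label in all 4 samples, whereas RUNX1T1 and the myeloid and leukocyte markers CD33, ANPEP and PTPRC were present, and the identity of the line was not tested. The erythroid and fibroblast lists had 0 of 5 genes with a row each, the T cell list 2, the B cell list 3 and the megakaryocyte list 1. The summed T cell list was 2.40 to 2.97 TPM in NC and 9.43 to 9.78 TPM in sh-ANP32B. CD3D, CD3E and CD3G had no row. CD2 moved from 1.65 and 1.57 TPM to 9.48 and 9.25 TPM (limma adjusted p 0.0261). TRAC, the only other gene with a row, fell from 1.32 and 0.829 TPM to 0.293 and 0.178 TPM. The sum therefore rose through CD2 alone. The B cell sum was 5.78 to 6.83 TPM in NC and 2.18 to 4.95 TPM in sh-ANP32B, and the megakaryocyte sum 2.56 to 2.71 and 3.79 to 5.74 TPM. Their part in the results was not tested. In bulk RNA, fewer cells of a type and less RNA per cell cannot be told apart.

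Promoter sequence was available in the RefSeq table (GRCh38.p14) for 7 of the 9 genes, not for SPI1 or CEBPD. The bases before the most upstream RefSeq start are printed 5′ to 3′ on the strand of the gene for the C/EBP genes, whose values are compared most closely below, and for IKZF1, the gene whose sh-ANP32B replicates lay closest together. The IKZF1 stretch stops where GENCODE v44 places an exon, and it lies past the annotated gene start at 50304068. Only 212 of its 250 bases are printed, whereas motifs were counted in all 250. Capitals mark 2 motifs searched on both strands, TTNNGNAA for C/EBP and GAGGAA for PU.1, which did not overlap in these stretches. The CEBPA stretch is chr19:33302535-33302784 (minus strand), CEBPB chr20:50190333-50190582 (plus strand), CEBPE chr14:23119256-23119505 (minus strand, inside an intron of a longer GENCODE transcript) and IKZF1 chr7:50304466-50304677 (plus strand).
CEBPA: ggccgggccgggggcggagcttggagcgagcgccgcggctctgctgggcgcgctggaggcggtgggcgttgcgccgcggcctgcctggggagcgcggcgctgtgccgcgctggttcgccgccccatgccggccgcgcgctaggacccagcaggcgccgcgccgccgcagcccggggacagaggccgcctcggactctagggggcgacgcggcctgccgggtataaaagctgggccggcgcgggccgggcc
CEBPB: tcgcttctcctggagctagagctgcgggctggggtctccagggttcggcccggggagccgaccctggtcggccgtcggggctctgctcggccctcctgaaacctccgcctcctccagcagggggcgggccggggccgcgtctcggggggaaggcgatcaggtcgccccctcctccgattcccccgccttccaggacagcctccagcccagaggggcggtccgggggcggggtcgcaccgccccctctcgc
CEBPE: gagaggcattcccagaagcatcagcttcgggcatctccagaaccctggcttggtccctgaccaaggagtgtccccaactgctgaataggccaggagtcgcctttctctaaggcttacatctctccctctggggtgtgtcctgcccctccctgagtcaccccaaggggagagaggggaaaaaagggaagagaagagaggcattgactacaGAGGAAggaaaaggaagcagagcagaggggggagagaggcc
IKZF1: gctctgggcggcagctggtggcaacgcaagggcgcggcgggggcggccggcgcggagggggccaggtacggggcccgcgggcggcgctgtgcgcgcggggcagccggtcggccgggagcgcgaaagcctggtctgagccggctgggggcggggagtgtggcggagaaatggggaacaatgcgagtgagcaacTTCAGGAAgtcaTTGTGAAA

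The C/EBP letters occurred in 1 of the 7 promoters, that of IKZF1, against 33.2% of the 35116 RefSeq windows of 250 bases. The PU.1 letters occurred in 2, CEBPE and KLF4, against 23.6% of windows. The GC box GGGCGG occurred in 5, including CEBPA and CEBPB, against 42.6%, and the Ikaros letters TGGGAA in 3, against 20.8%. The TATA letters TATAAA occurred in the CEBPA promoter only among the 7, against 10.7% of windows. GC content before the start was 81.2% for CEBPA, 75.6% for CEBPB, 71.2% for IKZF1, 69.2% for KLF4, 61.2% for GFI1, 57.2% for CEBPE and 55.6% for IRF8, against a median of 58% over all windows. Each of the 7 genes was searched in its most upstream window only, whereas the shares cover every window of every gene. Counts and shares are therefore not like for like. CEBPB, IRF8, GFI1 and IKZF1 have further windows. The IRF8 and KLF4 windows searched lie within the annotated genes. These matches describe the letters only.

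The comparison of sh-ANP32B with NC asked whether these regulators move when ANP32B is knocked down. Of the 8 genes, 6 had a log2 fold change above 0 and 2 below, and 0 passed an adjusted p under 0.05 by limma, against 3.32% of all 16817 genes tested. None of the 8 passed 0.1 either, against 9.94%. An unadjusted p under 0.05 was reached by 2 genes, SPI1 and CEBPB, against 23.8% of all genes. The median log2 fold change was 0.21 for the 8 genes and 0.08 for all genes tested, of which 57.9% were above 0. After median-of-ratios scaling these medians were 0.12 and 0.00104. Mitochondrial genes made up 12.9% and 13.1% of the TPM in NC and 11.4% and 8.43% in sh-ANP32B. With them left out, the median of the 8 genes was 0.16. NC and sh-ANP32B values lay fully apart in 4 genes, CEBPB, SPI1, CEBPE and IKZF1, all higher in sh-ANP32B. Of all genes tested, 33.2% lay apart in that direction and 54.6% in either direction, so 4 of 8 is near what genes in general showed. All fold changes were taken on log2(TPM + 1), so that those of low genes such as CEBPE and KLF4 are understated.

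**Figure D1:**
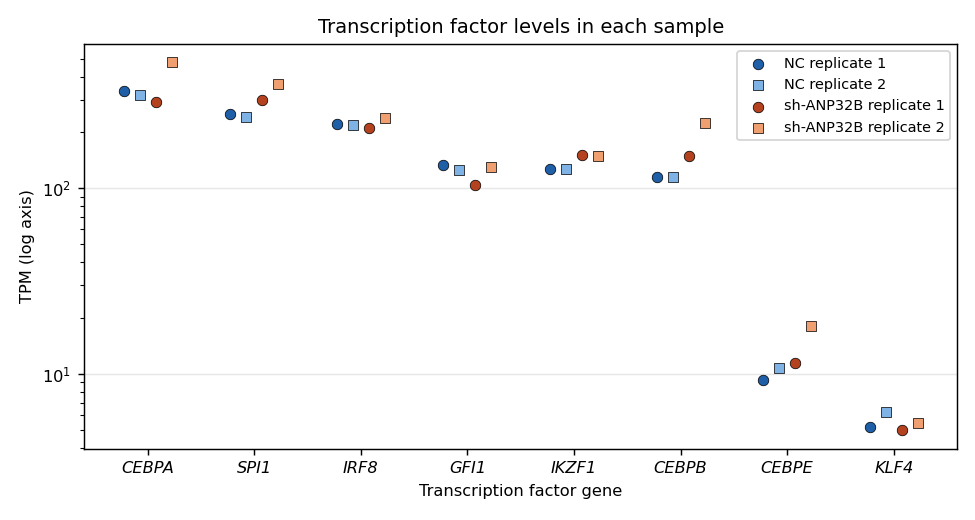
TPM (log axis) of the 8 transcription factor genes in each of the 4 samples, ordered by the mean in NC. CEBPA, SPI1 and IRF8 lie above 200 TPM in every sample, whereas CEBPE and KLF4 lie under 20 TPM. The NC replicates lie furthest apart in KLF4 and CEBPE (0.22 and 0.20 in log2(TPM + 1)) and closer in the other genes. The highest sample is sh-ANP32B replicate 2 for 5 of the genes.

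SPI1 (ENSG00000066336, chromosome 11 of hg38, 47354860 to 47378547, minus strand) was measured at 250.6 and 241 TPM in NC against 300.7 and 363.6 TPM after knockdown. Both sh-ANP32B samples lay above both NC samples. Its means were 246 ± 6.77 and 332 ± 44.5 TPM (SD, n = 2 each), a difference of 0.43 on the log2 scale (SE 0.139, 95% interval 0.09 to 0.76, limma adjusted p 0.131). Leaving out sh-ANP32B replicate 1 gave 0.56 (limma adjusted p 0.00178) and leaving out replicate 2 gave 0.29 (limma adjusted p 0.0378), in fits that called 24.3% and 20.7% of all genes, whereas without either NC sample the adjusted p was 0.643 or 0.712. PU.1 transcripts lay above 97.3% of the listed genes in NC.

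CEBPA (ENSG00000245848, chromosome 19, 33299934 to 33302534, minus strand, a single exon) was the most abundant of the 8 genes in NC, with 335 and 318.9 TPM. It had 292.1 TPM in sh-ANP32B replicate 1 and 477 TPM in replicate 2. One sh-ANP32B sample lay under both NC samples and the other above both, so the groups overlapped. The log2 fold change was 0.19 (SE 0.226, 95% interval -0.35 to 0.73, limma adjusted p 0.662). Without sh-ANP32B replicate 1 it was 0.54 (limma adjusted p 0.00192) and without sh-ANP32B replicate 2 it was -0.16 (limma adjusted p 0.194), so a single library decided its sign.

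CEBPB (ENSG00000172216, chromosome 20, 50190830 to 50192668, plus strand, a single exon) read 115.3 and 115.5 TPM in NC, against 148.4 and 224.3 TPM after knockdown. Both sh-ANP32B samples lay above NC, replicate 2 far above replicate 1. From means of 115.4 ± 0.131 and 186 ± 53.7 TPM (SD, n = 2 each) came the largest log2 fold change of the 8 genes, 0.66 (SE 0.202, 95% interval 0.17 to 1.14, limma adjusted p 0.119). CEBPB was the one gene of the 8 past the criterion of the study, an absolute log2 fold change over 0.5 at an unadjusted p under 0.05, which 18.6% of all genes passed, 12.1% upward and 6.55% downward. Correcting each sample for transcript GC content moved it to 0.47 on the log2 scale (limma adjusted p 0.0167), in a fit that called 18.0% of genes. The log2 fold change of CEBPB was 0.95 without sh-ANP32B replicate 1 and 0.36 without sh-ANP32B replicate 2. Without NC replicate 1 or NC replicate 2 it was 0.66 each time. Each of these fits has 1 residual degree of freedom. With all samples but without the abundance trend, the limma adjusted p of CEBPB was 0.217.

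CEBPE (ENSG00000092067, chromosome 14, 23117036 to 23120256, minus strand) was low, at 9.21 and 10.7 TPM in NC against 11.4 and 18 TPM after knockdown. The sh-ANP32B samples lay above NC, replicate 1 by less than 1 TPM over NC replicate 2. The log2 fold change was 0.49 (SE 0.253, 95% interval -0.12 to 1.09, limma adjusted p 0.298). Without sh-ANP32B replicate 1 it was 0.80 (limma adjusted p 0.0166, where 24.3% of genes were called) and without sh-ANP32B replicate 2 it was 0.18 (limma adjusted p 0.578).

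IRF8 (ENSG00000140968, chromosome 16, 85899116 to 85922606, plus strand) read 221.5 and 219.6 TPM in NC against 211.8 and 239.2 TPM after knockdown. One sh-ANP32B sample lay under both NC samples and one above. Their log2 fold change was 0.03 (SE 0.127, 95% interval -0.27 to 0.33, limma adjusted p 0.92), which turned to -0.064 after median-of-ratios scaling and -0.020 with mitochondrial genes left out. The microRNA gene MIR6774 lies within IRF8 on the same strand and has its own row, so reads could be split between them.

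KLF4 (ENSG00000136826, chromosome 9, 107484852 to 107490482, minus strand) was the lowest of the 8, at 5.16 and 6.19 TPM in NC against 4.95 and 5.46 TPM after knockdown. The groups overlapped. The log2 fold change was -0.10 (SE 0.23, 95% interval -0.65 to 0.45, limma adjusted p 0.836), and it was 0.0098 without NC replicate 2.

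GFI1 (ENSG00000162676, chromosome 1, 92473043 to 92486925, minus strand) read 133.6 and 125 TPM in NC against 103.6 and 131 TPM after knockdown. Replicate 2 of sh-ANP32B lay between the NC samples and replicate 1 under both. The log2 fold change was -0.15 (SE 0.155, 95% interval -0.52 to 0.22, limma adjusted p 0.617). Without sh-ANP32B replicate 2 it was -0.32 (limma adjusted p 0.0479), and without sh-ANP32B replicate 1 it was 0.019 (limma adjusted p 0.908).

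IKZF1 (ENSG00000185811, chromosome 7, 50304068 to 50405101, plus strand) read 127.7 and 126.9 TPM in NC against 150.7 and 149.8 TPM after knockdown. It was the gene with the tightest sh-ANP32B replicates, and the groups did not overlap. From means of 127.3 ± 0.548 and 150.2 ± 0.64 TPM (SD, n = 2 each) the log2 fold change was 0.24 (SE 0.121, 95% interval -0.05 to 0.53, limma adjusted p 0.288). Its own replicates differed far less than the SE, which limma draws mostly from genes of like abundance. GC correction moved it to 0.28 (limma adjusted p 0.0471, where 18.0% of genes were called), and GC correction together with a block on the replicate number left 0.28 with a limma adjusted p of 0.112.

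**Figure D2:**
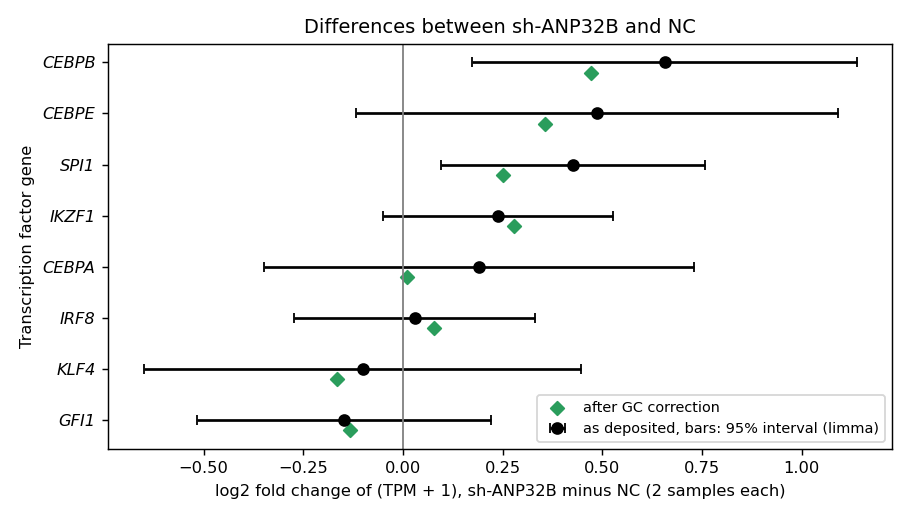
Log2 fold change of TPM + 1 (sh-ANP32B minus NC, 2 samples each) of the 8 genes. Black points with bars are the limma estimates and their unadjusted 95% intervals, and green diamonds the estimates after GC correction. The intervals of CEBPB and SPI1 lie above 0 and the other 6 include 0. GC correction moves CEBPB from 0.66 to 0.47 and CEBPA from 0.19 to 0.01.

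In NC the levels ran in the order CEBPA, SPI1, IRF8, GFI1, IKZF1, CEBPB, CEBPE and KLF4, and GFI1 and IKZF1 were the only neighbors whose replicates overlapped. In sh-ANP32B the order was CEBPA, SPI1, IRF8, CEBPB, IKZF1, GFI1, CEBPE and KLF4. There CEBPA overlapped SPI1, IRF8 overlapped CEBPB, and CEBPB overlapped IKZF1. CEBPB thus lay under GFI1 in both NC replicates and above it in both sh-ANP32B replicates.

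The gap between the sh-ANP32B replicates was larger than that between the NC replicates in 6 of the 8 genes, the exceptions being KLF4 and IKZF1, and was largest in the GC-rich C/EBP genes. Replicate 2 was above replicate 1 in 7 of the 8 genes. The log2 difference of TPM + 1 was 0.71 for CEBPA, 0.62 for CEBPE and 0.59 for CEBPB, whose longest transcripts hold 65.9%, 61.5% and 66.2% GC. It was 0.27 for SPI1 (65.2% GC), 0.34 for GFI1 (50.6%), 0.17 for IRF8 (47.6%), 0.12 for KLF4 (55.9%) and -0.01 for IKZF1 (48.2%). Across the 8 genes, which share the same libraries, Pearson r between GC content and this difference was 0.754 and Spearman rho 0.69, and for the NC replicates rho was 0.0476. Over all 15427 genes with a GC value, rho was 0.577 in sh-ANP32B and -0.206 in NC, and the tenth of genes highest in GC, at 61.3% or more, had a median difference of 0.438.

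**Figure D3:**
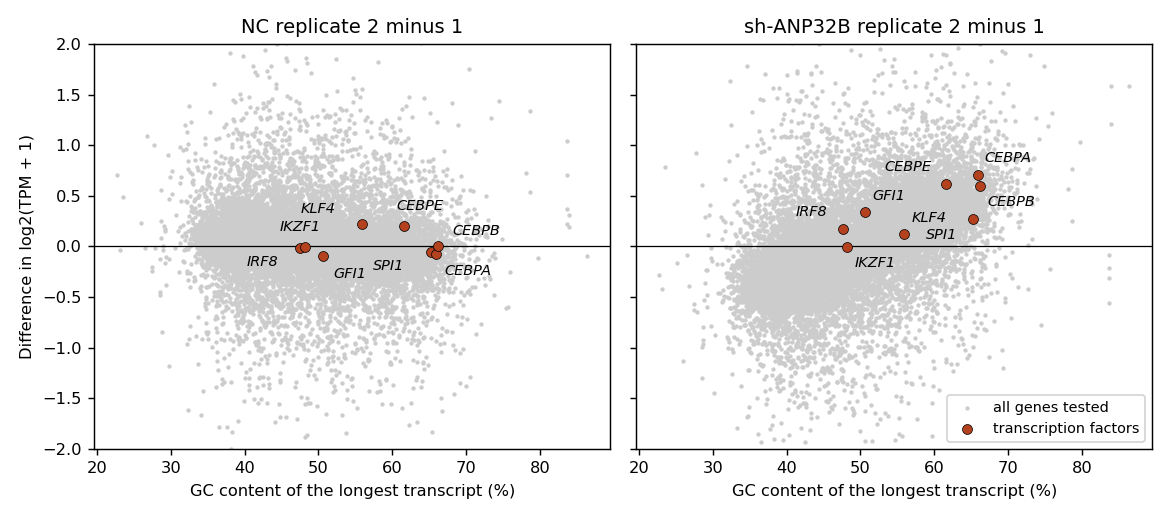
Difference in log2(TPM + 1) between replicate 2 and replicate 1 of NC (left) and sh-ANP32B (right) against the GC content of the longest transcript. Grey points are the 15427 tested genes with a GC value, less 30 (left) and 45 (right) beyond the axis, and red points the 8 transcription factors. In sh-ANP32B the GC-rich CEBPA, CEBPB and CEBPE lie between 0.59 and 0.71, whereas KLF4 lies further from 0 in NC (0.22) than in sh-ANP32B (0.12).

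Removing the trend on GC content in each sample shrank the gap between the sh-ANP32B replicates in 6 of the 8 genes, but not in IRF8, where it went from 0.17 to 0.23, or IKZF1, where it went from -0.0086 to 0.034. The difference between the sh-ANP32B replicates became 0.11 for CEBPB, 0.23 for CEBPA, 0.26 for CEBPE and -0.19 for SPI1. CEBPB then had log2 values of 6.86 and 6.95 in NC and 7.33 and 7.43 in sh-ANP32B, with the groups apart. CEBPA was at 8.38 and 8.39 in NC and 8.28 and 8.51 in sh-ANP32B, so its groups still overlapped. The corrected log2 values of IKZF1 were 7.08 and 7.06 in NC and 7.33 and 7.37 in sh-ANP32B. GFI1 kept a gap of 0.30 between the sh-ANP32B replicates, against 0.34 before.

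The C/EBP genes were also compared within each sample, a set of ratios chosen after the values were seen. CEBPA and CEBPB have nearly equal GC content and a single exon each. The ratio of CEBPB to CEBPA in TPM was 0.344 and 0.362 in NC and 0.508 and 0.47 in sh-ANP32B. The groups did not overlap, and the gap between them exceeded the gap between replicates, although 2 samples against 2 allow no permutation test under 0.05. The ratio of CEBPE to CEBPA was 0.0275 and 0.0337 in NC and 0.0389 and 0.0378 in sh-ANP32B. These groups did not overlap either, but the NC replicates differed by more than the gap between the groups. The ratio of CEBPE to CEBPB overlapped between the groups. Of all single genes tested, 54.6% did not overlap, and no such share was taken over ratios. Of the summed C/EBP TPM, CEBPB made up 25.1% and 25.9% in NC and 32.8% and 31.2% in sh-ANP32B, and CEBPA 72.9% and 71.6% against 64.6% and 66.3%. A ratio shows unequal change and does not say which gene changed. Genes on the opposite strand overlap CEBPA, CEBPB, KLF4 and IKZF1 in GENCODE v44, none of them with a row in the table, and no source states whether strand was used in counting.

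**Figure D4:**
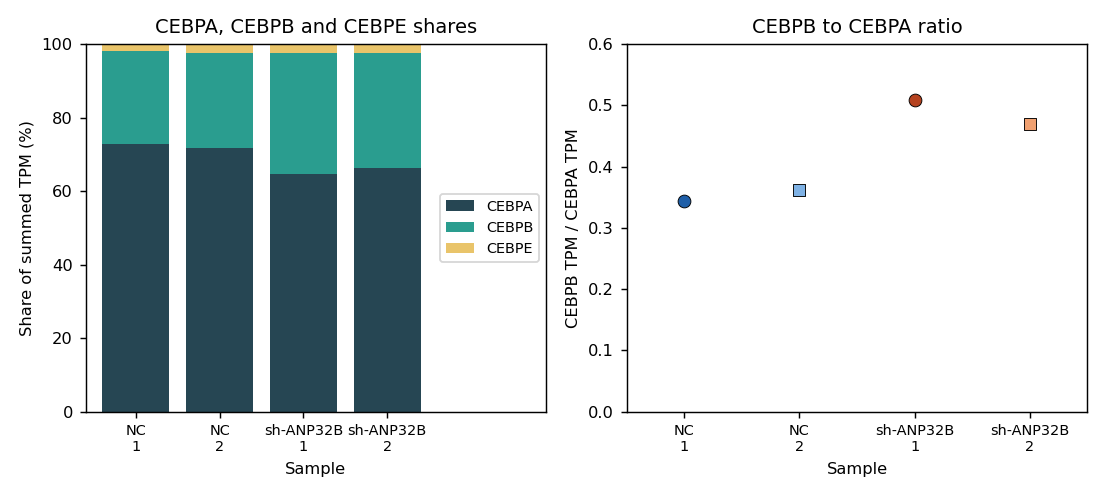
Left, share (%) of CEBPA, CEBPB and CEBPE in their summed TPM in each sample. Right, CEBPB TPM divided by CEBPA TPM. The ratio lies at 0.344 and 0.362 in the NC samples and at 0.508 and 0.47 in the sh-ANP32B samples.

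The relatives of these factors were read from lists of family members. Of 9 tested KLF genes 7 had a log2 fold change above 0, 7 reached an unadjusted p under 0.05 and 1 passed, where 23.8% of all genes reached that unadjusted p. KLF6, a widely expressed zinc-finger factor, rose from 35.4 and 41.4 TPM to 68.4 and 71.1 TPM (log2 fold change 0.85, SE 0.148, limma adjusted p 0.044), while KLF10, the most abundant relative, stood at 0.51 on that scale (limma adjusted p 0.113). Of 6 tested IRF genes all were above 0, 3 reached an unadjusted p under 0.05 and 1 passed. IRF9, the DNA-binding subunit of the interferon-activated ISGF3 complex, rose from 10.7 and 11.7 TPM to 25.6 and 24.6 TPM (log2 fold change 1.10, SE 0.169, limma adjusted p 0.0371). IRF5, the most abundant relative, had 0.25 (limma adjusted p 0.456). By this test 2.14% of all genes were higher and 1.18% lower.

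The other families held no gene with an adjusted p under 0.05. Of the 12 ETS relatives tested 0 passed, also at an unadjusted p under 0.05, and ELF1, the most abundant, read 119.6 and 121.1 TPM in NC against 172 and 136.5 TPM after knockdown. The 3 C/EBP relatives had a median log2 fold change of -0.16 with 0 passing, also at an unadjusted p under 0.05, and CEBPG, their most abundant, had 0.14 (limma adjusted p 0.642). The 2 Ikaros relatives with a row had a median of 0.07, with 0 passing, also at an unadjusted p under 0.05, and IKZF5, the more abundant, had 0.27 (limma adjusted p 0.355). Among GFI1 corepressor genes 0 of 5 passed, with 1 at an unadjusted p under 0.05, and HDAC1 had -0.03 (limma adjusted p 0.921). SPIB, SPIC and GFI1B had no row.

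Of 19 further granulocyte and monocyte factors tested, 16 had a log2 fold change above 0, with a median of 0.42. Among the 19, 6 reached an unadjusted p under 0.05 and 1 passed. Of all genes tested, 57.9% were above 0, 23.8% reached that unadjusted p and 2.14% passed as higher. STAT3, which carries signals from cytokine receptors including that for G-CSF, rose from 43.3 and 48.9 TPM to 79.2 and 81.2 TPM (log2 fold change 0.79, SE 0.14, limma adjusted p 0.044).

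Of 22 tested receptor and phagocyte genes that PU.1 and C/EBP factors are known to regulate, 21 had a log2 fold change above 0 (median 0.57). Of the 22, 13 reached an unadjusted p under 0.05 and 7 passed, all higher, among them NCF1, TYROBP, CSF2RB and LYZ. Over all genes tested, 57.9% were above 0 (median 0.08), 23.8% reached that unadjusted p and 2.14% passed as higher. NCF1, a cytosolic subunit of the phagocyte oxidase, rose from 70.7 and 60.6 TPM to 245.8 and 281.1 TPM (log2 fold change 1.99, SE 0.145, limma adjusted p 0.0109), a value that is uncertain because near-identical copies can share its reads. TYROBP, the adaptor of activating myeloid receptors, rose from 65.4 and 55.4 TPM to 210.6 and 270.1 TPM (log2 fold change 1.97, SE 0.169, limma adjusted p 0.0166). CSF2RB, the shared β chain of the GM-CSF receptor, rose from 10.1 and 12.2 TPM to 25.3 and 25.7 TPM (log2 fold change 1.13, SE 0.18, limma adjusted p 0.0392). Of these 7 genes, 2 still passed without NC replicate 1, 3 without NC replicate 2 and 0 without the abundance trend of limma. The list was written with a rise of myeloid genes in these samples already known, so it is not independent evidence of that direction. It also leaves out the primary granule genes, although granule proteins are among the targets of these factors. Those genes went both ways, as given below.

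Of the C/EBPε and late granule genes 8 of 16 had a row and 6 were tested, of which 5 were above 0, with a median of 0.70, 4 at an unadjusted p under 0.05 and 1 passing. Of those 4, LYZ, ITGAM and CAMP rose and CHI3L1 fell (log2 fold change -0.30). LYZ and ITGAM are also on the PU.1 and C/EBP list, and CAMP stayed between 2.31 and 7.18 TPM. LYZ, which encodes lysozyme, rose from 669.4 and 696.8 TPM to 1360 and 1316 TPM (log2 fold change 0.97, SE 0.118, limma adjusted p 0.0281), while LTF and LCN2 had no row. Of 8 tested genes that GFI1 is known to repress, 6 were above 0, 3 reached an unadjusted p under 0.05 and 1 passed. For both lists, the shares over all genes tested were 57.9% above 0, 23.8% at that unadjusted p and 2.14% passing as higher. CDKN1A, the cell cycle inhibitor p21, rose from 15.4 and 18.3 TPM to 30.8 and 41.5 TPM (log2 fold change 1.05, SE 0.202, limma adjusted p 0.0482). The 4 primary granule genes with a row, described here after their values were seen, went both ways with 0 passing and all 4 at an unadjusted p under 0.05. ELANE and AZU1 had log2 fold changes of 0.62 and 0.44 and PRTN3 and CTSG of -0.54 and -0.61. After GC correction ELANE passed as higher (limma adjusted p 0.0456). PRTN3 and CTSG then passed as lower (limma adjusted p 0.0105 and 0.0134), in a fit that called 18.0% of genes.

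**Figure D5:**
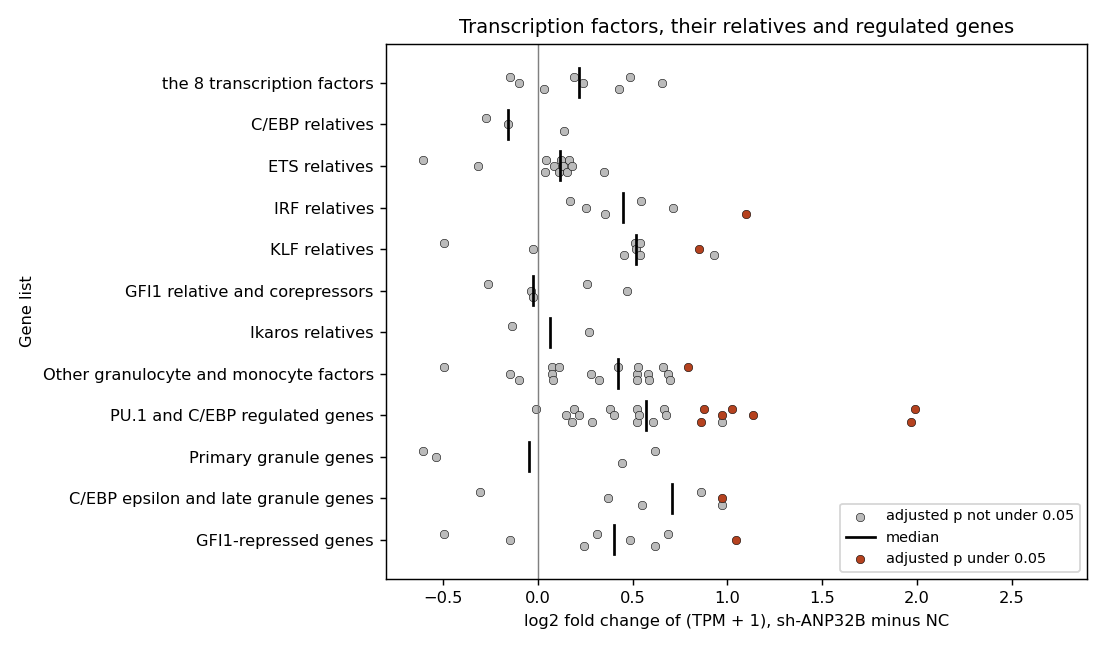
Log2 fold change of TPM + 1 (sh-ANP32B minus NC) of the tested genes of each list, with red points for an adjusted p under 0.05, grey points for the others and a black bar for the median of the list. The 8 transcription factors have no red point and a median of 0.21, whereas 7 of 22 PU.1 and C/EBP regulated genes are red and the median is 0.57. Of all genes tested, 2.14% passed as higher and 1.18% as lower.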

How the data were processed

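RNA from 4 samples labelled Kasumi-1, 2 NC and 2 sh-ANP32B by their titles, was sequenced after TruSeq library preparation. Per the labels and the methods of the study, reads were aligned to hg38 with HISAT2 2.0.5. The deposited values are TPM made by the authors, a unit read from the values, as each column holds decimals and sums to between 997812 and 998314. The program behind them, its annotation and its filters are not given in the sources used here, and no row had a mean under 0.5 TPM. Of 18567 gene IDs, 16986 were matched to symbols in GENCODE v44 (hg38).

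The 16817 genes that reached 1 TPM in 2 or more samples were tested as log2(TPM + 1) by limma 3.58.1 with an abundance trend (R 4.3.3), two-sided, with Benjamini-Hochberg adjustment over all genes tested. The test of the study needs read counts and was not used. TPM keeps no depth, so no counting interval was given. GC correction removed, in each sample, a loess fit (span 0.3) on the GC content of the longest transcript. On simulated data with 200 changed genes the test recovered 15% of those changed by 1 and 71% of those changed by 2 on the log2 scale. There 3.36% of its calls were false. The simulated replicates had no GC trend, so these rates describe that setting only. The genes and lists were chosen with earlier results of these data known. Besides these genes and ANP32B, the text names, in each list, up to 3 passing genes in each direction with a mean of at least 5 TPM, and the most abundant relative of each family. Genes most like a factor in pattern were to be named for factors with an adjusted p under 0.05, of which there were 0. No value above 0 was identical between replicates. Alternatives were other scalings, filters, a pseudocount of 0.1, GC correction, a replicate block, no abundance trend, a looser threshold and leaving out each sample. Figures were drawn with Python 3.11.15 and matplotlib 3.10.9.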

Additional observations from a re-analysis of the deposited data

How the results depend on the processing

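Against 0 in the report, the factors reaching an adjusted p under 0.05 numbered 2 once GC content was corrected (CEBPB and IKZF1), 1 with the replicate block, 1 with the replicate block with GC correction (CEBPB in both), and between 0 and 4 in the fits that each left out one sample. The number past the criterion of the study, 1 as reported, became 0 under GC correction with or without the replicate block, and 0 to 4 with one sample left out. Deviations of samples with 1 number in common were not positively related (Pearson r -0.0925 over genes). Replicate differences followed GC content in opposite directions (rho 0.577 in sh-ANP32B and -0.206 in NC), so that r cannot show whether samples were paired. Their titles share a number only. Of all genes, 18.0% were called under GC correction, 8.76% with the block and up to 24.3% with a sample left out. The block with GC correction called 15.2% of genes. With the block alone CEBPB had a limma adjusted p of 0.0305. SPI1 kept a log2 fold change between 0.25 and 0.43 and an adjusted p of 0.107 or more in 10 alternatives, and CEBPB one between 0.47 and 0.66. IRF8 reversed to -0.064 after median-of-ratios scaling and -0.020 without mitochondrial genes. With one sample left out CEBPA ranged from -0.16 to 0.54, GFI1 from -0.32 to 0.019, IRF8 from -0.058 to 0.12 and KLF4 from -0.21 to 0.0098. The median over the 8 factors, 0.21 as reported, ranged from 0.059 without sh-ANP32B replicate 2 to 0.39 without replicate 1. Its pooled SD within groups was 0.148. With 2 samples a group, these shifts and that SD both come from the gap between replicates, so they cannot be weighed against each other. The cause of these shifts was not tested.

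ANP32B kept its log2 fold change of -3.04 without the abundance trend, with a limma adjusted p of 0.0929. Over all genes, the report's 559 calls became 2772 under GC correction, 1473 with the replicate block, 2350 with the replicate block with GC correction, 1671 at an adjusted p under 0.1, 0 without the abundance trend of limma (3701 at an unadjusted p under 0.05) and 273 to 4079 with one sample left out. The count among the other listed genes, 12 as reported, became 39 under GC correction, 21 with the replicate block, 29 with the replicate block with GC correction, 0 without the trend and 3 to 48 with one sample left out. Each fit with one sample left out has 1 residual degree of freedom and assumes that the lone sample varies like the other group. Changes of 1 log2 unit were recovered in 15% of simulated cases, where 200 of 16817 genes were changed and no GC trend was present. In the real data 23.8% of genes reached an unadjusted p under 0.05, so that rate need not hold here. With 2 samples a group and unknown depth, a missed threshold does not show that a factor did not change.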
